A study of Drosophila melanogaster with 3 samples.

Results

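The genes described here encode the subunits of the machine that places the histone variant H2Av into Drosophila chromatin, and H2Av itself. They are YL-1, domino (dom), Arp6, Gas41, DMAP1, Bap55, Act5C, pontin (pont), reptin (rept) and His2Av, chosen by name, and make up 10 of the 13945 protein-coding genes in the annotation. Genome occupancy of YL-1 was measured by chromatin immunoprecipitation and sequencing (ChIP-seq). Whole embryos of mixed sex, aged 0 to 24 h, came from the strain YL-1-GFP, a stable transgenic line that makes YL-1 with GFP at its C-terminus, and an anti-GFP antibody was used. All 3 biological replicates were of this 1 group, and neither another genotype nor an untagged group was analysed. Embryos of all these ages were pooled, so a region may come from some of the cells or ages only. The data ask whether YL-1 occupies the genes of its own complex, and where in each gene.

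In flies the Domino ATPase exists in remodelling complexes that swap the H2A-H2B dimer of a nucleosome for one carrying H2Av, and one of these also holds the acetyltransferase Tip60. YL-1 binds the H2Av-H2B dimer. H2Av is an unusual variant, since it does the work of both H2A.Z, found around active start sites, and H2A.X, which is phosphorylated at DNA breaks. Pontin and Reptin are related AAA+ ATPases that also work in the INO80 remodeller and in a chaperone complex. Act5C is a cytoplasmic actin that is also a subunit of nuclear complexes, Bap55 is an actin-related protein shared with the Brahma remodeller, and Gas41 reads modified histone tails through its YEATS domain.

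The lists hold one line per region, with a signal value from the authors' peak calling and a summit position. Regions are ranked by signal, with rank 1 the strongest. The list thresholded by the irreproducible discovery rate (IDR), a measure of how well replicates rank the same regions, held 5986 peaks, the 5986 strongest regions of the pooled list. Each pooled or replicate list held 30000 regions and reached into background. The 5986 strongest of a replicate are called its top regions. Signal has a different scale in each list, with medians of 20.7, 20.9 and 31.1 in replicates 1, 2 and 3 and 61.1 in the pooled list. It was therefore also divided by the median of its list (relative signal), and the read depth behind it is unknown. A gene was called bound when a summit lay within 250 bp of an annotated transcription start site. Distances are negative upstream of the start site.

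YL-1 was listed at the start sites of most of these genes. The IDR list called 8 of the 10 bound, and it called 4655 of all 13945 protein-coding genes bound, or 33.4%. The exceptions were dom, whose summit lay 255 bp into the gene, and Arp6, whose nearest IDR summit was 2218 bp away. In the top regions of replicates 1, 2 and 3, the bound members numbered 8, 7 and 8, beside 32.8%, 31.3% and 32.3% of all genes. YL-1, Bap55, Act5C, pont, rept and His2Av were bound in every replicate, 6 of 10 members beside 23.9% of all genes. Gas41 and DMAP1 were bound in 2 replicates, dom in 1 and Arp6 in 0.

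The start-site layout of these genes was itself uncommon. A protein-coding neighbour pointed the other way from a start site at most 300 bp upstream for 8 of the 10 members, all but Arp6 and Act5C, against 18.4% of all protein-coding genes. Such head-to-head genes were bound more often in general. Of 2563 of them 73.3% were bound, and 7 of the 8 members of this kind were. Of the 11382 other genes 24.4% were bound, and of Arp6 and Act5C the latter was. The count of 8 among 10 members thus stands beside a background that differs with layout, and no test over these 10 chosen genes was made.

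The sequence between the paired start sites is shown for YL-1, His2Av, pont and rept, the head-to-head members with the highest signal within the 250 bp window, since their strongest IDR summits lie in it. Each is from dm6, reads 5′ to 3′ on the strand of the gene named first and ends at the base before its start site. Capitals mark, on either strand, the DRE (TATCGATA), the letters CGATA outside it, Ohler motif 1 (GGTCACAC), the E-box CAGCTG, the TATA box (TATAAA), the GAGA element (GAGAG) and the Zelda site CAGGTAG, all known fly promoter elements. A match is a description of the letters only.
YL-1 and Tmem214, 2L:10970276-10970442: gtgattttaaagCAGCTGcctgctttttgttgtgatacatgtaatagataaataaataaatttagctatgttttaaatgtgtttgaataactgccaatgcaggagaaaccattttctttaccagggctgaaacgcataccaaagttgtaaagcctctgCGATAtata
His2Av and ball, 3R:26866808-26866928: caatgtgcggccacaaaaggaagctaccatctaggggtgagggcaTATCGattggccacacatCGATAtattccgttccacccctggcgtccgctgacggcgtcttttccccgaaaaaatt
pont and Sirt6, 3R:10261850-10262122: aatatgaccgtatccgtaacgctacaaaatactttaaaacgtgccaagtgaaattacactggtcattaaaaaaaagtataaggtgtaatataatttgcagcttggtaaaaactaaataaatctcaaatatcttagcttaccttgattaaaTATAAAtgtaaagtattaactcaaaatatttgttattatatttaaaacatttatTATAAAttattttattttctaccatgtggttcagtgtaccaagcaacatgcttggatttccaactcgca
rept and mRpL21, 3L:19255062-19255339: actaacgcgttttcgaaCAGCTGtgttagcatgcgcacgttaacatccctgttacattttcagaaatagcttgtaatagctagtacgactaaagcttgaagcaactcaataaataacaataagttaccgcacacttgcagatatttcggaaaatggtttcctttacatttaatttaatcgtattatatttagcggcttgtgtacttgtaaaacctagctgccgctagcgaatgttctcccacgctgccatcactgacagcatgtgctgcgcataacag

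These stretches overlap no annotated exon. They are 167, 121, 273 and 278 bp long, and their GC content is 33.5%, 52.9%, 26.7% and 40.3%. The YL-1 IDR summit fell on the CGATA, 1 bp from its centre. The strongest summit of replicate 2 was at the same base. Those of replicates 1 and 3 were 62 and 21 bp upstream of the start site, off these letters. His2Av has CGATA on one strand and its reverse complement TATCG 18 bp away, with the IDR summit 18 bp from the nearer centre. The single rept match, an E-box, lies beside the mRpL21 start site.

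**Figure D1:**
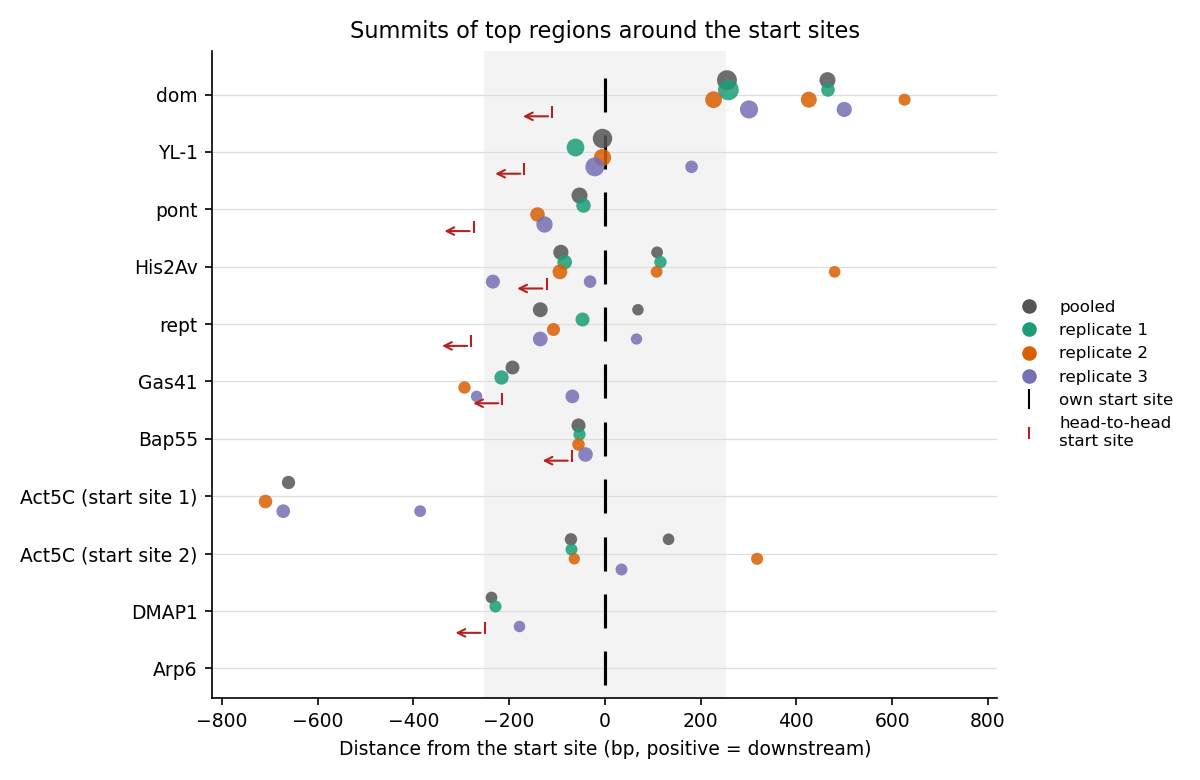
Summits of regions that rank among the strongest 5986 of the pooled list and of each replicate, by distance (bp) from each annotated start site, with positive values downstream. Circle area grows with relative signal, the grey band spans 250 bp on either side, black bars are the gene's own start site and red bars with arrows the start site of a head-to-head neighbour. Most circles of the paired genes lie between the black and the red bar, those of dom lie to the right of its start site, and Arp6 has none.

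dom, the ATPase that drives the exchange, carried the strongest region of the set in the IDR list and in replicate 1, but inside the gene. In replicates 2 and 3 YL-1 ranked higher, at 136 against 173 and at 106 against 150. The IDR peak (2R:21323198-21324186) had its summit 255 bp after the start site, with signal 674 at rank 88, and another summit at 465 bp with signal 396 at rank 637. Both fell in the intron that follows the first exon. In replicate 1 the strongest summit was at 258 bp (signal 253, rank 26), in replicate 2 at 227 bp (signal 152, rank 173) and in replicate 3 at 301 bp (signal 275, rank 150). All 3 replicates therefore placed it downstream, 262 ± 37.2 bp from the start site (SD, n = 3), and its rank was highest in replicate 1. Only in replicate 2 was it inside the 250 bp window, so the call of dom as not bound is a matter of position. With a 500 bp window dom was called bound and the members numbered 9, beside 37.6% of all genes. Near the edge of the window, 180 genes had their nearest summit at 251 to 300 bp and 291 at 201 to 250 bp.

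All 4 annotated dom transcripts begin at 1 site, and they read away from CG30394, 110 bp upstream. No IDR summit lay within 250 bp of the CG30394 start either. The rest of the 18418 bp gene held little. From 1000 bp after the start to 200 bp before the end there was no IDR summit and no top region in any replicate, and the pooled list had 2 regions there, at ranks 23344 and 28490. Inside dom lie 15 genes for snoRNAs, the guide RNAs of ribosomal RNA modification, and 0 of these had an IDR summit within 250 bp. At the 3′ end, next to the start of BBS9, the pooled list had a region at rank 10848, below the IDR threshold.

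YL-1 itself had the highest start-site signal of the bound members. The IDR peak (2L:10970231-10970619) had its summit 6 bp upstream of the only start site, with signal 637 at rank 111, above 97.3% of the 4655 bound genes. Signals in replicates 1, 2 and 3 were 174, 162 and 307, at ranks 140, 136 and 106, with the summit 62, 6 and 21 bp upstream. The ranks of the 3 replicates lay close together, and relative signal was 8.68 ± 1.08 (SD, n = 3). The start site of Tmem214 lies 168 bp upstream on the other strand and 162 bp from the same summit, so this region was counted for both genes. The immunoprecipitated protein is the product of a YL-1 transgene, and whether a further copy of YL-1 sequence in this line adds reads here was not tested.

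**Figure D2:**
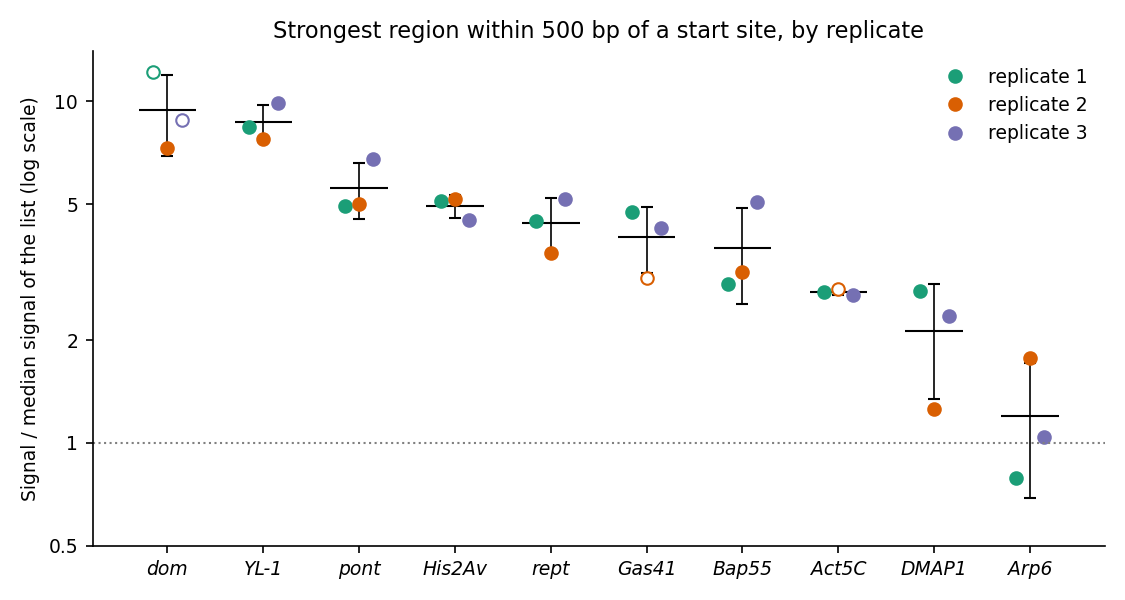
Relative signal (signal divided by the median of its list, log scale) of the strongest region within 500 bp of a start site, for each gene and replicate. Filled circles have their summit within 250 bp and open circles farther out, black lines are means, error bars are SD over 3 replicates and the dotted line is the list median. dom at 9.44 and YL-1 at 8.68 lead, and Arp6 at 1.20 lies near the list median.

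The genes of the paired ATPases, pont and rept, had similar arrangements. At pont the IDR summit was 55 bp upstream with signal 395 at rank 651. Replicate signals were 102, 104 and 211, at ranks 1022, 795 and 412, and the summit moved from 46 bp upstream in replicate 1 to 141 and 127 bp upstream in replicates 2 and 3. Relative signal was 5.57 ± 1.04 (SD, n = 3), highest in replicate 3. The head-to-head neighbour was Sirt6, which encodes a sirtuin deacetylase, with its start site 219 bp from the summit. A separate IDR summit beyond the 3′ end of pont, at rank 3280, was 9 bp from a start site of the kinase gene Nuak.

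At rept the strongest IDR summit was 135 bp upstream with signal 325 at rank 1171, and a weaker one, 69 bp downstream in the 5′ UTR, had signal 142 at rank 5708. Replicate signals were 92.8, 75.1 and 161, at ranks 1370, 2019 and 1033, with summits 47, 108 and 135 bp upstream. Relative signal was 4.42 ± 0.796 (SD, n = 3). The start site of mRpL21, a mitochondrial ribosomal protein gene, was 144 bp from the summit, which lay almost midway between the paired start sites. The ranges of pont and rept overlapped across replicates, but pont had the higher relative signal in each of the 3 replicates, and no test was made.

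His2Av, the gene of the exchanged histone, was bound in every replicate. Its strongest IDR summit was 92 bp upstream with signal 342 at rank 1013, and another, 109 bp downstream in the 5′ UTR, had signal 156 at rank 5053. Replicate signals were 106, 109 and 140, at ranks 905, 690 and 1518. Relative signal was 4.93 ± 0.387 (SD, n = 3). Replicates 1 and 2 had the strongest summit 84 and 94 bp upstream. Replicate 3 had a weaker top region 31 bp upstream, with signal 101 at rank 3149. Its strongest summit was 234 bp upstream, past the start of the neighbour. That neighbour is ball, which encodes a kinase of nucleosomal histone H2A, and its start site was 122 bp from that of His2Av and 30 bp from the IDR summit. Replicate 2 also had a top region in the coding sequence, 480 bp after the start site at rank 4122, which the other replicates did not share.

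Bap55 and Gas41 lay near the middle of all bound genes. At Bap55 the IDR summit was 56 bp upstream with signal 277 at rank 1790. Replicate signals were 60.4, 66.3 and 157, at ranks 3449, 2640 and 1108, and relative signal was 3.72 ± 1.17 (SD, n = 3). The summit position varied least of all members, at 55, 56 and 41 bp upstream, while the rank was far higher in replicate 3. The start site of Lhr, the Lethal hybrid rescue gene, was 69 bp from that of Bap55 and 13 bp from the summit.

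At Gas41 the IDR summit was 194 bp upstream with signal 268 at rank 1938. It was 20 bp from the start site of SA1, a cohesin subunit gene, and so much nearer to that neighbour. Replicate 1 had signal 98.5 at rank 1163, 218 bp upstream, and replicate 3 had signal 132 at rank 1748, 68 bp upstream. In replicate 2 the signal was 63.7 at rank 2856, and the summit was 295 bp upstream, outside the window and past the SA1 start. The strongest summits of the replicates thus disagreed on which of the paired start sites was nearer. Replicate 3 also had a weaker top region 268 bp upstream of Gas41, at rank 5062 and 54 bp from the SA1 start. Another IDR summit beyond the 3′ end, at rank 2436, lay 29 bp from a start site of ihog, which encodes a Hedgehog co-receptor.

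DMAP1, a SANT-domain subunit, and Arp6, an actin-related subunit, were at the low end. The IDR summit counted for DMAP1 was 237 bp upstream, with signal 155 at rank 5132, and it lay 14 bp from start sites of Tcs1 and of Polr3K, the latter an RNA polymerase III subunit gene. Replicate 1 had signal 57.5 at rank 3768 and replicate 3 had 73.2 at rank 5144, both upstream. Replicate 2 had its strongest region 38 bp upstream with signal 26.3 at rank 10854, below its top regions. The pooled list also had a region 38 bp upstream of DMAP1 itself, with signal 126 at rank 6593, just below the weakest IDR signal of 137.

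Arp6 had no top region in any replicate. Its strongest regions within 250 bp had signals of 16.4, 37.1 and 32.4 in replicates 1, 2 and 3, at ranks 20521, 6825 and 14189, and 78.6 at rank 11192 in the pooled list. Replicate 2 came nearest to its top regions. Relative signal was 1.20 ± 0.511 (SD, n = 3), so Arp6 was near the middle of lists that reach into background. The pooled summit was 27 bp upstream, but the replicate summits were 190 and 106 bp upstream and 181 bp downstream. Arp6 has 1 transcript and no head-to-head coding neighbour. The 150 bases before its start site are shown for contrast with the bound genes.
Arp6, X:15737121-15737270, minus strand: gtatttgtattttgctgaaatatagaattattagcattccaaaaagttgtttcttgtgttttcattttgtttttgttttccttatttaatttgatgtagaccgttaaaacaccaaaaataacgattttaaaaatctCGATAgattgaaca

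These bases are 24.7% GC and hold CGATA close to the start site, as YL-1 does. That match was 15 bp from the pooled summit. The same letters thus stood beside the start sites of the bound member with the highest signal and of the member with the lowest.

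Act5C was the only member with more than 1 annotated start site. Its 4 transcripts RA, RC, RD and RE begin at X:5900861 and RB begins at X:5901982, inside the gene. The internal start site was bound and the upstream one, which most transcripts use, was not. IDR summits lay 71 bp upstream of the internal site (signal 186, rank 3915) and 133 bp downstream of it (signal 153, rank 5215). Replicate signals at the internal site were 57.1, 47.2 and 84.3, at ranks 3808, 4842 and 4229, with summits 70 and 64 bp upstream and 33 bp downstream. Relative signal was 2.58 ± 0.275 (SD, n = 3), and 22.9% of bound genes had less IDR signal.

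The nearest IDR summit to the upstream Act5C start was 662 bp further upstream, with signal 235 at rank 2611, stronger than the internal peak. It was 210 bp from the start of a long non-coding RNA gene, lncRNA:CR45668. Replicates 2 and 3 had it among their top regions, at ranks 1450 and 1868, but replicate 1 had it at rank 14354. Replicate 3 also had a top region 386 bp upstream of the start, at rank 4411. Signals near this start site therefore differed between the replicates more than those at the internal one. The 150 bases before each start are shown because they differ in the elements that the capitals mark.
Act5C, upstream start site, X:5900711-5900860: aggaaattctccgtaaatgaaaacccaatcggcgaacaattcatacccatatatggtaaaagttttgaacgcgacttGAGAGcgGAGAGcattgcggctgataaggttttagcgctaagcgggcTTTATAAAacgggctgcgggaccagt
Act5C, internal start site, X:5901832-5901981: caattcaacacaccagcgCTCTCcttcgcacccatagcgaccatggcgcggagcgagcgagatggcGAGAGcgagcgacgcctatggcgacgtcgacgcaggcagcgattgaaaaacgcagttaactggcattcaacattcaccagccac

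The upstream start has a TATA box match, with overlapping letters on both strands, from 26 bp before it, and 2 GAGAG matches. The internal start has no TATAAA in its 300 base promoter window and 7 GAGAG matches, counted on both strands from 250 bases before to 50 after the start, the nearest 11 bp from the summit. GC content is 46.0% before the upstream start and 58.7% before the internal one. Ensembl 115 starts are annotated ends, and their use in embryos was not measured here.

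**Figure D3:**
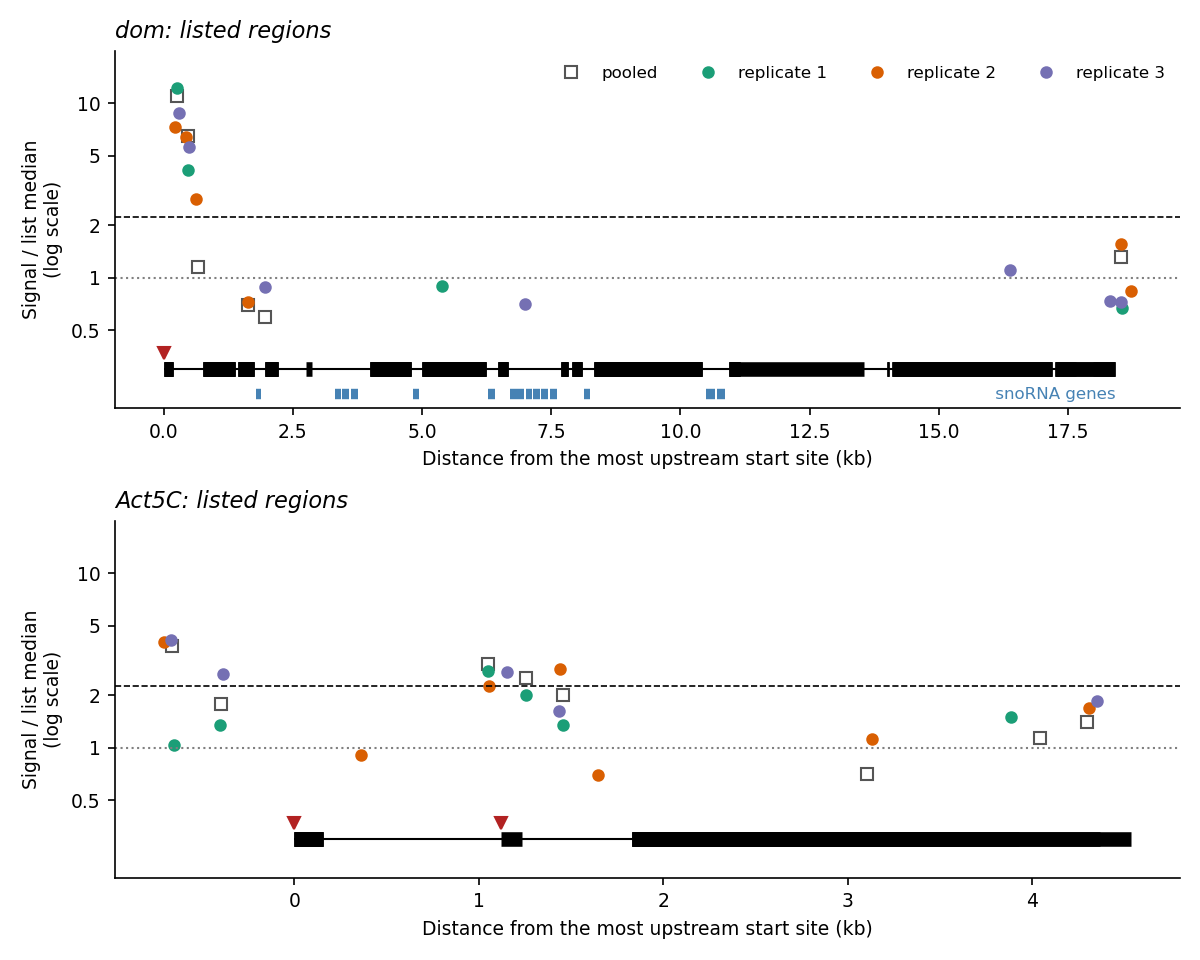
Every listed region at dom (top) and Act5C (bottom), plotted by distance from the most upstream start site (kb) and relative signal (log scale). Squares are the pooled list and circles the replicates, the dashed line is the weakest IDR peak on the pooled scale and the dotted line the list median, black boxes are exons, red triangles start sites and blue boxes snoRNA genes. Strong regions sit only at the start of dom, while at Act5C they sit upstream of the gene and around the internal start site.

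Ordered by mean relative signal within 500 bp, the members ran dom (9.44 ± 2.51), YL-1, pont, His2Av, rept, Gas41 (4.02 ± 0.877), Bap55, Act5C (2.76 ± 0.0545), DMAP1 (2.13 ± 0.782) and Arp6, all as mean ± SD over 3 replicates. Neighbours in this order had overlapping replicate values and changed places in at least 1 replicate, except at 2 steps where the order was the same in all 3. The lowest YL-1 value, 7.76, was above the highest pont value, 6.77, and the lowest Bap55 value, 2.92, was above the highest Act5C value, 2.82. With the 250 bp window the order changed. There dom kept only replicate 2, with 7.29, below the YL-1 mean, and Gas41 kept replicates 1 and 3, with 4.51 ± 0.347 (SD, n = 2), above the rept mean. Act5C took the value given above, since the region that replicate 2 had 318 bp after the internal start was no longer counted.

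**Figure D4:**
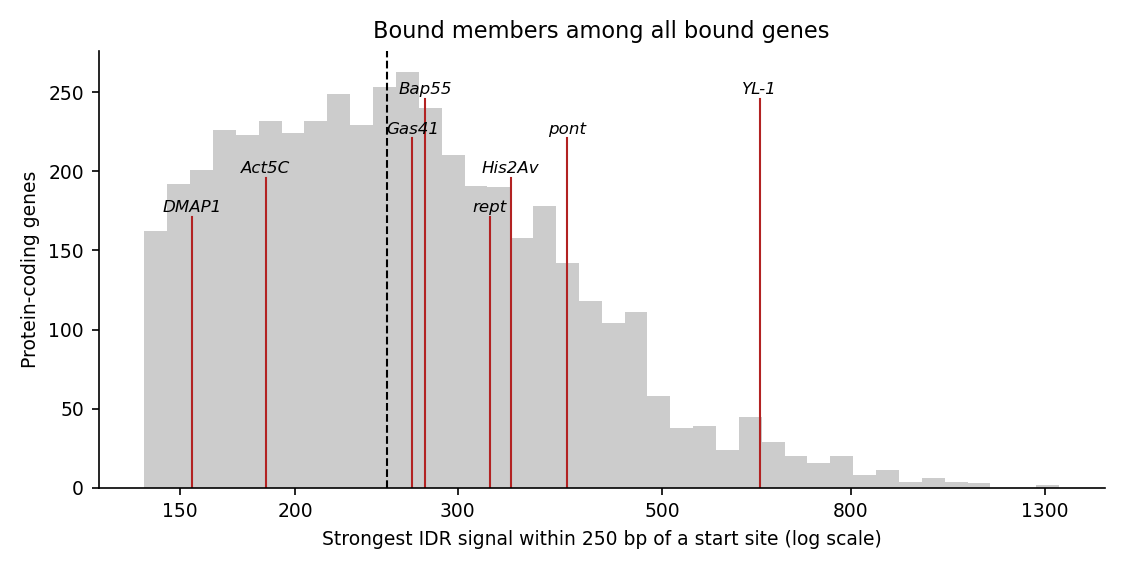
Strongest IDR signal within 250 bp of a start site (log scale) for the 4655 bound protein-coding genes, in grey, with the 8 bound members in red and the median of all bound genes dashed. The members spread from DMAP1, above 8.01% of bound genes, to YL-1, above 97.3%.

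Among bound genes the members were spread over most of the range rather than gathered at the top. Their median IDR signal was 300.9, beside 251.6 for all bound genes, whose quartiles were 190.3 and 339.3. The share of bound genes with less signal was 97.3% for YL-1, 84.0% for pont, 75.6% for His2Av, 72.0% for rept, 59.1% for Bap55, 56.2% for Gas41, 22.9% for Act5C and 8.01% for DMAP1. The median distance from start site to nearest IDR summit was 81.5 bp over all 10 members. It was 124.5 bp without replicate 1, from the replicate 2 summits of top regions that overlapped those of replicate 3. It was 143 bp with the most upstream start site of each gene. The strongest summit was upstream at all 8 bound members, and at 60.7% of bound genes. Of these members 7 were head-to-head genes, where a summit between the paired start sites is upstream of both. At Act5C it was upstream of the internal start site only. The 60.7% covers all layouts, so the comparison is not matched for layout.

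The strongest IDR summit lay between the paired start sites at all 7 head-to-head pairs with a bound member. Over the genome 1324 such pairs were found, and 1004 had an IDR summit at either start. At 591 of these (58.9%) the strongest lay between. The pairs over the genome take any spacing up to 300 bp, so the 58.9% is not matched for gap length. Both genes were bound in 898 (89.4%) of the 1004, as they were in the 7 member pairs. In single replicates the strongest summit fell outside the gap at Gas41 in replicates 1 and 2 and at His2Av in replicate 3. Sonicated fragments were 200 to 800 bp long, the gaps of these 7 pairs spanned 69 to 279 bp, and the summits of neighbouring regions in a list were never less than 199 bp apart. A summit within 250 bp of both start sites was counted for both genes, and no measurement here assigns it to one of them.

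Away from the start sites the members had few strong regions. Beyond 250 bp from a start site, only dom had IDR summits inside the gene. At the other members, top regions there were found only at His2Av and Act5C, both in replicate 2. The long 3′ UTR of Act5C had weaker listed regions, of which the best ranked 8903, 7319 and 6925 in replicates 1, 2 and 3.

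Promoter elements differed from member to member. DRE letters stood in 1 of 10 members, Gas41, where they begin at the start site, beside 9.36% of all promoters and 18.9% of bound ones. GGTCACAC, the core of a motif of housekeeping promoters (Ohler motif 1), was in 4 of 10, YL-1, dom, DMAP1 and pont, beside 7.70% of all and 17.6% of bound promoters. It begins at the start site of pont, 16 bp after that of YL-1 and 45 bp before that of dom, and the DMAP1 match, 250 bp upstream, is 9 bp from the summit at its neighbours. CGATA outside the DRE was in 5 of 10, beside 44.8% and 57.0%. TATAAA was in 2, beside 45.8% and 45.6%, and GAGAG in 1, beside 29.7% and 22.6%. CAGCTG was in 1, beside 17.7% and 24.5%. The initiator letters TCAGT were in 4, beside 51.5% and 43.2%, and TCATT in 5, beside 58.8% and 55.6%. CAGGTAG, a site of the early embryonic activator Zelda, was in 0 of 10, beside 1.64% and 1.07%. TTCTTTTC, a pyrimidine run, was in 1, Arp6, beside 2.89% and 3.18%. These windows run from 250 bases before to 50 after the most upstream start site, for genes and background alike. The shares are not matched for layout, since 8 of the 10 members are head-to-head genes, beside 18.4% of all genes. A window of such a gene can reach the start site of its neighbour.

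Genes of neighbouring complexes were listed with the same rule. Of 9 genes of the Tip60 module, 8 were bound, with the highest signals at MrgBP (464, rank 350) and E(Pc) (445, rank 411). Hcf was the exception, with a summit 262 bp away. Of 4 INO80 genes 3 were bound, led by Ino80 (305) and Arp8 (252), and pho, whose product binds DNA at Polycomb response elements, was not. All 4 genes for other H2A-H2B handling proteins were bound, led by the chaperone gene Nap1 (422) and by dre4 (267), which encodes a FACT subunit. Partners of Pontin and Reptin in the chaperone complex gave 2 of 3, spag (418) and Pih1D1 (323).

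Actin genes split. Of 12 other actin and actin-related genes 7 were bound, with Arp3 (476, rank 317) and Act42A (345, rank 996) highest. Act42A is the other cytoplasmic actin gene, and its signal was above the 186 of Act5C. Act57B, Act79B, Act87E and Act88F, the muscle actin genes, were not bound, nor was Arp2. All these counts stand beside the 33.4% of all genes bound.

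For YL-1, pont and His2Av, the genes with the most similar ranks were sought, and the head-to-head partner came first for each. Likeness was the Euclidean distance between log10 ranks in the pooled and 3 replicate lists, over 5725 genes with a region in all 4. Tmem214, Sirt6 and ball had a distance of 0 from YL-1, pont and His2Av, because the paired genes have the same region. The next nearest were Xbp1 (0.0755) and CG10600 (0.115) for YL-1, CG33695 (0.0762) and OstDelta (0.0811) for pont, and PIG-A and Vps50 (both 0.0624) for His2Av. Xbp1 had ranks of 115 in the pooled list and 161, 125 and 101 in the replicates.

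The windows changed how many members were called, with the background. Within 100 bp 6 members were bound, beside 23.6% of all genes, and Gas41 and DMAP1 dropped out. At 1000 bp 9 were bound, beside 40.8%, and Arp6 remained the exception.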

How the data were processed

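The authors deposited region lists in narrowPeak format for each replicate, for the pooled libraries and after IDR thresholding, each against a control set, per the labels and the inventory beside the samples. No source used here names the aligner or the peak caller. Each region has the authors' deposited signal value, a −log10 q-value with a ceiling (4.13 in the IDR list) and a summit offset, kept as deposited. The dm3 lists were not used. No list holds counts, so precision comes from the spread over 3 replicates only.

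Summits (start plus offset) were set against all start sites of the Ensembl 115 annotation of Release 6 (dm6), and sequence came from RefSeq. All 10 members have the same bounds in RefSeq. The members and gene lists were chosen with earlier results of these data known. With 1 group, no test was made. Every member and each gene with a start site within 250 bp of an IDR summit at a member is named, as are the 2 strongest bound genes of each list. The head-to-head split (divergent starts at most 300 bp apart) and the order at 500 bp were added after seeing the data. Unbound actin genes, Hcf, pho, CG30394 and BBS9 were named after their values were seen. A planned comparison of protein sequences was not made. The steps were tested on simulated data. Python 3.11.15, numpy 2.4.6, pandas 2.3.3 and matplotlib 3.10.9 were used.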

Additional observations from a re-analysis of the deposited data

How the results depend on the processing

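The alternatives were other windows, peaks above the median signal, the full pooled list, the region's middle or whole extent, the most upstream start site, other numbers of top regions, another divisor and each replicate left out. Members bound in the IDR list or its replacement numbered 6 to 9 over the 12 alternatives run for that count. The share of all genes bound under these ran from 20.9%, with peaks above the median signal, to 52.2%, with the full pooled list. Members bound in every replicate numbered 4 with 3000 top regions and 4 with a 100 bp window, and 6 to 8 under the others. For those alternatives the share of all genes was not computed, so these counts have no background beside them. A value was taken as unchanged within 1.5 times of the main count, or within the spread between replicates. That range is wide for member counts. A count of 8 among 10 members could not rise out of it, and 4 in place of 6 lay on its limit and was kept. The rule is therefore a weak check of the member counts. It held in 42 of 47 alternatives for the summary results. The exceptions were these. Bound protein-coding genes numbered 2915 with peaks above the median signal and 7277 with the full pooled list. The median distance from summit to start site was 143 bp with the most upstream start site. It was 124.5 bp without replicate 1, from replicate 2 summits. The 77 bp found without replicate 2 or 3, from replicate 1 summits, counted as unchanged and is not an exception. Leaving out replicate 1 thus also changed whose summits were used, and these cannot be told apart here. The median relative signal was taken over the 8 members bound in the IDR list, within 250 bp, and so left out dom and Arp6. It was 1.40 with the median of the top regions as divisor, in place of 4.46, which follows from the larger divisor. With each replicate left out it was 4.32 to 4.65.

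With each replicate left out, 7 to 8 members were bound, among 3851 to 3945 genes (27.6% to 28.3% of all). These calls used summits of replicate 2 when replicate 1 was left out, and of replicate 1 otherwise, at top regions shared by the remaining replicates. Without replicate 1, dom was bound and Gas41 and DMAP1 were not. This rests on replicate 2 summits, 227 bp downstream at dom and 295 bp upstream at Gas41. The replicate 3 summits, 301 bp downstream and 68 bp upstream, were not used. Without replicate 3, DMAP1 was not bound. With each replicate's own summits, 6 to 8 members were bound in every remaining replicate. With the full pooled list only dom was not bound, but there 52.2% of all genes were bound. When the start site had to lie inside the region only Arp6 was not, beside 31.3% of all genes bound. With the most upstream start site dom, Arp6 and Act5C were not bound, beside 30.6% of all genes bound. Ranking by column 8 was not run, because that column ranks no region in these lists. No paired analysis was possible because there is 1 group and no result comes from a test. Depth is unknown, so a missing peak at Arp6 is not evidence that YL-1 is absent there.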
